A study of Mus musculus with 6 samples.

Results

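Red cell transcripts were followed through 6 RNA libraries of whole mouse testis, using 7 genes chosen by name: the adult globins Hba-a1, Hba-a2, Hbb-bs and Hbb-bt, and the erythroid genes Alas2, Slc4a1 and Ahsp. Of these 7 genes, 6 had a row under their name in the table of 55850 rows, and all 6 had a mean of at least 1 FPKM, the limit for testing, as did 14238 rows in all. FPKM is the number of sequenced fragments scaled to gene length and to the library total. No row carried the name Ahsp, and a row without a name that resembles it is described separately. The libraries were 3 from conditional knockout (cKO) testes and 3 from wild-type (WT) testes, both without treatment. By its title, the series concerns loss of the splicing factor SRSF2 from Sertoli cells, which support germ cells inside the seminiferous tubule. The strain, the age, the Cre driver and the number of animals per library were not given in the sources used here, so p-values measure only the spread between these libraries, which may be technical.

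Haemoglobin, the oxygen carrier of red cells, pairs alpha with beta globin chains around haem. Red cells make it while they mature in the bone marrow, fetal liver or spleen, and they lose the nucleus and then most of their RNA, globin mRNA being the bulk of what is left. Alas2 encodes the first and rate-limiting enzyme of haem synthesis in erythroid cells, Slc4a1 encodes band 3, the chloride and bicarbonate exchanger that also ties the membrane to its skeleton, and Ahsp encodes a chaperone of free alpha globin. A whole testis holds blood in its vessels beside its own cells. In bulk libraries fewer cells of a type and less RNA per cell cannot be told apart.

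The globin copies are nearly identical, and the stretches around the coding base that differs are shown because it bears on how far a single copy can be measured. In the GENCODE M21 transcripts, the coding sequences of Hba-a1 and Hba-a2 were identical at 428 of 429 bases, with the substitution C381T from Hba-a1 to Hba-a2. Those of Hbb-bs and Hbb-bt were identical at 443 of 444 bases, with the substitution C417T from Hbb-bs to Hbb-bt. Positions count from 1 at the first base of the start codon, and the differing base is in capitals.
Hba-a1: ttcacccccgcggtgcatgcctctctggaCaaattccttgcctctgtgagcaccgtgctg
Hba-a2: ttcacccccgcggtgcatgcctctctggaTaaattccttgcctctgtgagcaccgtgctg
Hbb-bs: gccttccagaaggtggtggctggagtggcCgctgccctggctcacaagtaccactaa
Hbb-bt: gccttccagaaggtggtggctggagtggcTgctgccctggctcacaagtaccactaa
How the authors' counting divided reads that match both copies was not given in the sources used here, so the level of a single copy is uncertain and the sum over a pair is the firmer value. An alpha and a beta gene, Hba-a1 and Hbb-bs, shared 57.83% of aligned coding columns.

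On GRCm38 the alpha genes lie on the plus strand of chromosome 11, Hba-a1 at chr11:32283511-32284465 and Hba-a2 at chr11:32296489-32297298. The beta genes lie on the minus strand of chromosome 7, Hbb-bs at chr7:103826534-103828096 and Hbb-bt at chr7:103812524-103813996. Alas2 is on the plus strand at chrX:150547375-150570638 and Slc4a1 on the minus strand at chr11:102348824-102366203. Of the 2403 exon bases of Alas2, 372 also belong to exons of Apex2 or Mir3620 on the opposite strand, so its level is uncertain to that extent. No annotated gene shared exon bases with the other 5.

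Promoter sequences from RefSeq on GRCm38.p6 were found for 5 of the 6 members, all but Slc4a1. They are shown as a description, and their part in the members' levels was not tested. The 250 bases before the RefSeq start are printed for Hba-a1 (chr11:32283422-32283671, plus strand), Hbb-bs (chr7:103827929-103828178, minus strand), Hbb-bt (chr7:103813924-103814173, minus strand) and Alas2 (chrX:150547167-150547416, plus strand). Each of these starts lies inside the GENCODE M21 span of its gene given above, so the printed bases fall partly within that span. Capitals mark GATAA, a core of the sites that GATA factors bind, CACCC, a core of KLF sites, and CCAAT, the CCAAT box, on either strand; no matches shared a base.
Hba-a1: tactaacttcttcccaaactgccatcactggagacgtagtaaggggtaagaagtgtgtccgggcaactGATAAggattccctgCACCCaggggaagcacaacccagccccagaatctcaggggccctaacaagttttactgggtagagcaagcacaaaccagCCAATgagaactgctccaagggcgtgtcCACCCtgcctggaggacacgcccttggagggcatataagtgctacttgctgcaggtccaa
Hbb-bs: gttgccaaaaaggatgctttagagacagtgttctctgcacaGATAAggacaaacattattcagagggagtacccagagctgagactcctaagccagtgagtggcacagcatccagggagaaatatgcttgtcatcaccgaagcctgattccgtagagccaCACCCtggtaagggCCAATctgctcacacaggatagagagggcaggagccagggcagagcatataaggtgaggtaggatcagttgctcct
Hbb-bt: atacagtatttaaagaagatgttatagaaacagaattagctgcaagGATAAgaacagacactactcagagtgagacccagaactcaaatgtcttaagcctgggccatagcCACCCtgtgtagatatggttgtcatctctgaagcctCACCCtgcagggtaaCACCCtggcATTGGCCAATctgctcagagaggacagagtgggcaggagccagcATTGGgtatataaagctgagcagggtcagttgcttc
Alas2: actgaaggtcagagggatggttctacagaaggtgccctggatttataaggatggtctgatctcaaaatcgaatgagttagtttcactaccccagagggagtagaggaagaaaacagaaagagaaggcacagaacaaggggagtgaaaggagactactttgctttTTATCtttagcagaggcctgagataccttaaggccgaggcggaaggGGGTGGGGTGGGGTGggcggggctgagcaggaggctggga
The promoter of Hba-a2 is not printed because, shifted by 3 bases, it was identical to that of Hba-a1 over 297 of 297 bases. In windows of 300 bases, which run 50 bases past the start, all 4 globin promoters held all 3 motifs, as did 4.84% of 32851 mouse promoters. Alas2 held GATAA and 3 copies of CACCC, all on the reverse strand, and had no match to CCAAT in this window. Alone, GATAA was found in 25.4%, CACCC in 57.5% and CCAAT in 37.4% of all promoters, so a match is a description and not a bound site.

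The libraries were of even depth, with 16185976 to 17281330 recovered reads in cKO and 16070287 to 16479907 in WT. Srsf2 measured 74.0, 87.3 and 87.3 FPKM in cKO libraries 1, 2 and 3, against 127, 96.7 and 102 FPKM in WT libraries 1, 2 and 3. Defining markers of Sertoli, Leydig and germ cells were detected in every library. Reads of 18S rRNA made up 0.727% to 0.835% in cKO and 1.58% to 2.09% in WT, and mitochondrial genes 2.39% to 2.97% in cKO and 1.66% to 1.98% in WT. These shares separate the groups, and their part in the globin values was not tested, although the haemoglobin share without them is given below.

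The adult globins were abundant in both groups. By highest over lowest FPKM, all 6 members varied more among WT libraries than among cKO libraries. Within cKO, Hbb-bt, Alas2, Hbb-bs and Hba-a1 varied by only 1.25-fold to 1.35-fold. The 4 adult globins together took 0.381%, 0.505% and 0.498% of reads in cKO libraries 1, 2 and 3, against 0.290%, 0.212% and 0.429% in WT libraries 1, 2 and 3. The share averaged 0.461% ± 0.0694 in cKO and 0.310% ± 0.110 in WT (SD, n = 3 each), and the groups overlapped because WT 3 lay above cKO 1. Without 18S rRNA and mitochondrial reads the shares were 0.394%, 0.524% and 0.517% in cKO, against 0.301%, 0.220% and 0.445% in WT, in the same order of libraries. No member passed the test between genotypes: limma on log2(FPKM + 1), adjusted by the Benjamini-Hochberg method over all genes tested, called 0 of 6 members at 0.05, against 0.014% of all genes tested. At an unadjusted p under 0.05 it called 1 member, Hbb-bs, higher in cKO, against 4.65% of all genes tested in that direction, and limma voom on recovered reads called 0 members, with 4 higher in cKO at an unadjusted p under 0.05, against 5.95% of the 17780 genes of that fit. The log2 difference, cKO minus WT, was above 0 in 6 of 6 members, with a median of 0.64 against 0.0049 over all genes tested. The members were not independent of each other, since they shared the libraries. Reads that match both copies of a globin pair may also tie those copies together.

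**Figure D1:**
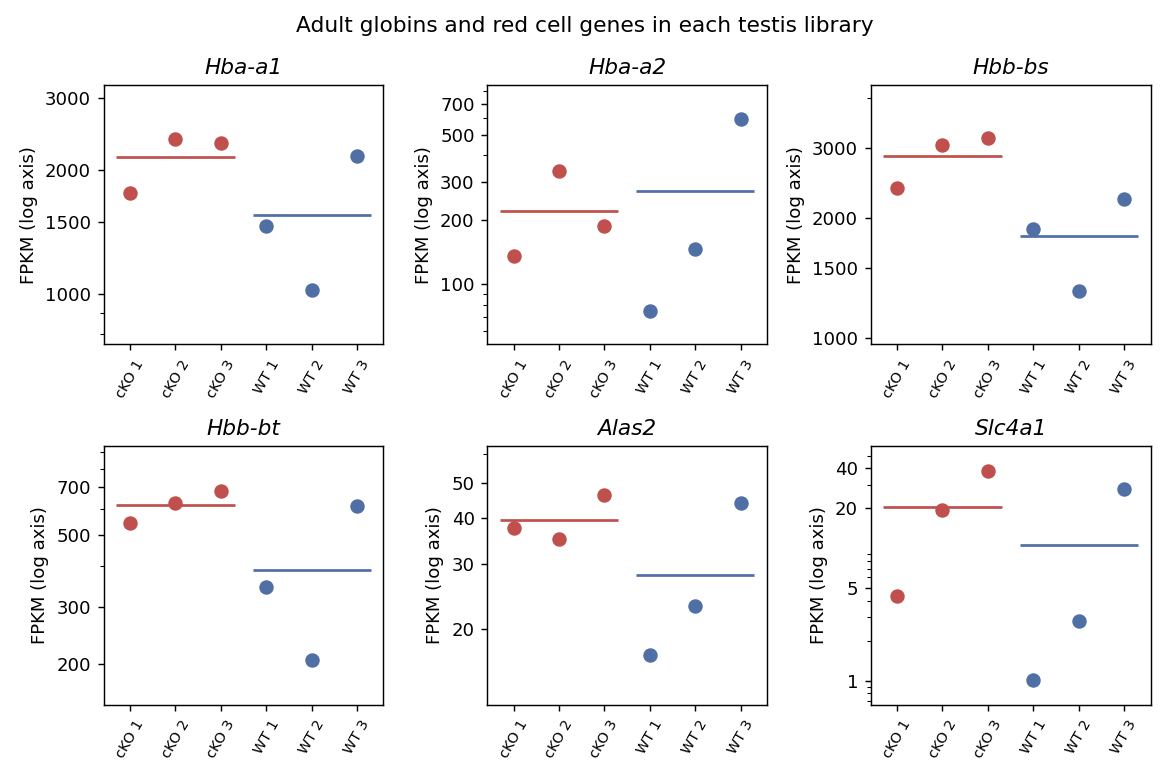
FPKM of the 6 members in each library on log axes, cKO libraries in red on the left and WT libraries in blue on the right; points are single libraries and lines are group means (n = 3 each). WT 3 lies among or above the cKO libraries for 5 of the members, and only for Hbb-bs do the groups not overlap.

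Hbb-bs, the major adult beta globin, was the most abundant member and the 6th most abundant of all genes tested. It measured 2378, 3060 and 3176 FPKM in cKO 1, 2 and 3, against 1877, 1312 and 2232 FPKM in WT 1, 2 and 3. Every cKO library lay above every WT library, as was so for 8.69% of all genes tested, though cKO 1 and WT 3 were close. The means were 2872 ± 431 FPKM in cKO and 1807 ± 464 FPKM in WT (SD, n = 3 each), a log2 difference of 0.69 with a standard error of 0.26 and a 95% interval of 0.10 to 1.28 (limma, unadjusted p = 0.0275, adjusted p = 0.380). Without WT 2 the difference was 0.48, and without WT 3 it was 0.86.

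Hbb-bt, the other adult beta globin, was lower than Hbb-bs in all 6 libraries. It measured 545, 628 and 682 FPKM in cKO 1, 2 and 3, against 347, 207 and 615 FPKM in WT 1, 2 and 3. The 3 cKO libraries were alike, whereas WT 2 had the lowest value and WT 3 lay above cKO 1, so the groups overlapped. The means were 618 ± 68.8 FPKM in cKO and 390 ± 208 FPKM in WT (SD, n = 3 each), a log2 difference of 0.80 with a standard error of 0.35 (95% interval -0.02 to 1.62, limma adjusted p = 0.407). Without WT 3 the difference was 1.20 and without WT 2 it was 0.41, so both of these libraries bear on its size.

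Hba-a1, an adult alpha globin, was the 8th most abundant gene tested. It measured 1764, 2376 and 2333 FPKM in cKO 1, 2 and 3, against 1469, 1025 and 2172 FPKM in WT 1, 2 and 3. WT 3 was close to cKO 2 and cKO 3 and above cKO 1, and WT 2 was lowest. The means were 2158 ± 342 FPKM in cKO and 1555 ± 578 FPKM in WT (SD, n = 3 each), a log2 difference of 0.53 with a standard error of 0.30 (95% interval -0.16 to 1.21, limma adjusted p = 0.486). Without WT 3 the difference was 0.80, and without WT 2 it was 0.26.

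Hba-a2, the other adult alpha globin, followed its near-identical copy in part, with the same 3 highest libraries in another order. It measured 135, 338 and 186 FPKM in cKO 1, 2 and 3, against 74.9, 145 and 594 FPKM in WT 1, 2 and 3. Both the highest and the lowest value were from WT libraries, a 7.93-fold range, and WT 3 stood above every other library. The means were 220 ± 106 FPKM in cKO and 271 ± 282 FPKM in WT (SD, n = 3 each), so cKO was lower by the means, at 0.810 of WT. On the log2 scale the difference was 0.13 with a standard error of 0.69 (limma adjusted p = 0.947), the opposite sign. The log2 difference turned to -0.52 without WT 1, -0.05 without WT 2 and -0.23 without cKO 2, and was 0.96 without WT 3, 0.43 without cKO 1 and 0.20 without cKO 3.

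The split between near-identical copies varied among libraries, more for alpha than for beta. Hba-a1 over Hba-a2 was 13.1, 7.02 and 12.5 in cKO 1, 2 and 3, against 19.6, 7.06 and 3.66 in WT 1, 2 and 3. WT 1 and WT 3 had the highest and lowest ratios, 5.36-fold apart, with the cKO libraries between them. Hbb-bs over Hbb-bt was 4.36, 4.87 and 4.66 in cKO 1, 2 and 3, against 5.41, 6.35 and 3.63 in WT 1, 2 and 3. The beta ratio spanned 1.12-fold among cKO libraries and 1.75-fold among WT libraries, and the cKO values again lay within those of WT. Neither copy ratio separated the genotypes by an exact two-sided permutation test over the 6 libraries (p = 0.7 for each, n = 3 each; the smallest p this design allows is 0.1). The log2 difference, cKO minus WT, was 0.39 for the alpha ratio and -0.11 for the beta ratio, and these turned to -0.17 without WT 3 and 0.063 without WT 2.

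Summed over copies, alpha over beta globin FPKM was 0.650, 0.736 and 0.653 in cKO 1, 2 and 3, against 0.694, 0.770 and 0.972 in WT 1, 2 and 3. WT 3 had the highest ratio and the other 5 libraries were close together. The ratio averaged 0.680 ± 0.0490 in cKO and 0.812 ± 0.143 in WT (SD, n = 3 each), a log2 difference of -0.24 (exact two-sided permutation p = 0.2), which was -0.11 without WT 3. Adjusted over the 4 ratios tested, all 4 had p = 0.8 by the Benjamini-Hochberg method on exact permutation values. Alpha below beta in every library is a comparison of levels per length, in FPKM, and depends on how each gene was counted.

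**Figure D2:**
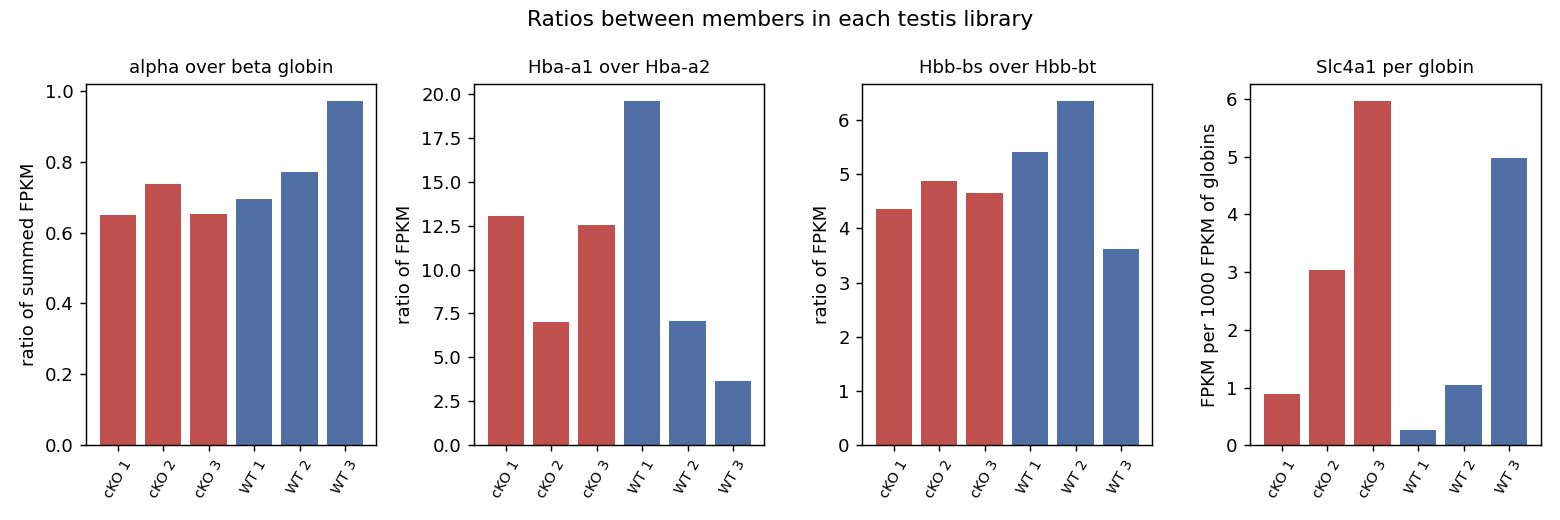
Ratios between members in each library, cKO in red on the left and WT in blue on the right: summed alpha over summed beta globin FPKM, Hba-a1 over Hba-a2, Hbb-bs over Hbb-bt, and Slc4a1 FPKM per 1000 FPKM of the 4 globins. Bars are single libraries and start at 0. WT 3 is highest for alpha over beta, at 0.972, and lowest for both copy ratios, and Slc4a1 per globin is high in cKO 2, cKO 3 and WT 3.

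Alas2, the haem synthesis enzyme, was present at 37.6, 35.1 and 46.2 FPKM in cKO 1, 2 and 3, against 16.9, 23.0 and 44.2 FPKM in WT 1, 2 and 3. WT 1 and WT 2 were low, and WT 3 lay above cKO 1 and cKO 2. The means were 39.6 ± 5.83 FPKM in cKO and 28.0 ± 14.3 FPKM in WT (SD, n = 3 each), a log2 difference of 0.59 with a standard error of 0.31 (limma adjusted p = 0.460). It was 0.96 without WT 3 and 0.29 without WT 1.

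Slc4a1, the band 3 anion exchanger, varied most among the 6 members. It measured 4.31, 19.4 and 38.1 FPKM in cKO 1, 2 and 3, against 1.02, 2.80 and 27.9 FPKM in WT 1, 2 and 3. It was high in cKO 2, cKO 3 and WT 3 and low in cKO 1, WT 1 and WT 2, so the split crossed genotype. These values rested on 360, 1676 and 3038 reads in cKO and 79, 230 and 2226 reads in WT, and the lowest, WT 1, had an exact 95% Poisson interval of 0.804 to 1.27 FPKM, which covers counting error only. The range was 37.5-fold over the 6 libraries, 8.83-fold within cKO and 27.5-fold within WT. The means were 20.6 ± 16.9 FPKM in cKO and 10.6 ± 15.0 FPKM in WT (SD, n = 3 each), a log2 difference of 1.42 with a standard error of 1.02 (95% interval -0.94 to 3.78, limma adjusted p = 0.572). Leaving out WT 3 gave 2.55, leaving out cKO 1 gave 2.22, leaving out cKO 3 gave 0.78, and leaving out WT 1 gave 0.63.

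Against the globins in the same library, Slc4a1 and Alas2 behaved differently. Slc4a1 stood at 0.894, 3.04 and 5.97 FPKM per 1000 FPKM of the 4 globins in cKO 1, 2 and 3, against 0.270, 1.04 and 4.97 in WT 1, 2 and 3. Alas2 stood at 7.80, 5.48 and 7.25 per 1000 in cKO 1, 2 and 3, against 4.49, 8.55 and 7.87 in WT 1, 2 and 3. The Slc4a1 value thus varied over a much wider range than that of Alas2, and in both the cKO and WT libraries overlapped. Alas2 and Slc4a1 together per globin differed by 0.25 on the log2 scale between cKO and WT (exact two-sided permutation p = 0.8, n = 3 each), and by -0.16 without WT 1 and 0.56 without WT 3. Ahsp, which this ratio was planned to include, had no row.

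By level, the members kept 1 order in all 6 libraries: Hbb-bs, Hba-a1, Hbb-bt, Hba-a2, Alas2, Slc4a1. Across libraries, the ranges of neighbours in that order overlapped, except between Hba-a1 and Hbb-bt and between Hba-a2 and Alas2. Within a library the smallest gap was between Hbb-bs and Hba-a1 in WT 3, at 1.03-fold. The within-group standard deviation on the log2 scale was 0.32 for Hbb-bs, 0.42 for Hba-a1, 0.57 for Hbb-bt, 0.50 for Alas2, 1.17 for Hba-a2 and 1.76 for Slc4a1, and the last of these was above that of 99.97% of genes tested.

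The members varied together across libraries to differing degrees. Over the 6 libraries, the log2 levels of Hba-a1 correlated with those of Hbb-bt at r = 0.980, with Hbb-bs at 0.951, with Slc4a1 at 0.819 and with Hba-a2 at 0.598. The lowest r was 0.379, between Hba-a2 and Hbb-bs, and that between Alas2 and Slc4a1 was 0.889. These are descriptions over 6 points that share libraries and both genotypes, and reads may match both copies of a globin pair.

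One row of the table had no gene name, and the authors' deposited table describes it as alpha-hemoglobin-stabilizing protein, the product of Ahsp; it is not counted as a member. It measured 11.0, 46.8 and 83.8 FPKM in cKO 1, 2 and 3, against 8.95, 6.77 and 73.2 FPKM in WT 1, 2 and 3. As with Slc4a1, the values were high in cKO 2, cKO 3 and WT 3 and low in the other 3 libraries, and r between the pair was 0.966 over the 6 libraries. Its log2 difference, cKO minus WT, was 1.03 with a standard error of 0.95 (limma adjusted p = 0.657), and it was 2.05 without WT 3, 1.83 without cKO 1, 0.60 without WT 1, and 0.42 without either WT 2 or cKO 3.

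The same 3 libraries were highest for many other red cell genes. This pattern was noticed in Slc4a1 after the values were seen, so the counts that follow describe it and do not test it. It is called the Slc4a1 order below, whatever the order among these 3 libraries. Among the members, 4 of 6 had cKO 2, cKO 3 and WT 3 as their highest 3 libraries, against 7.06% of all genes tested. Of 17 tested genes of the red cell membrane and skeleton, 12 did, of 10 erythroid transcription factors 6, of 17 red cell enzymes and maturation genes 8, of 13 haem synthesis genes 6, and of 6 progenitor genes 2. The lists overlap in function and in the libraries they share.

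**Figure D3:**
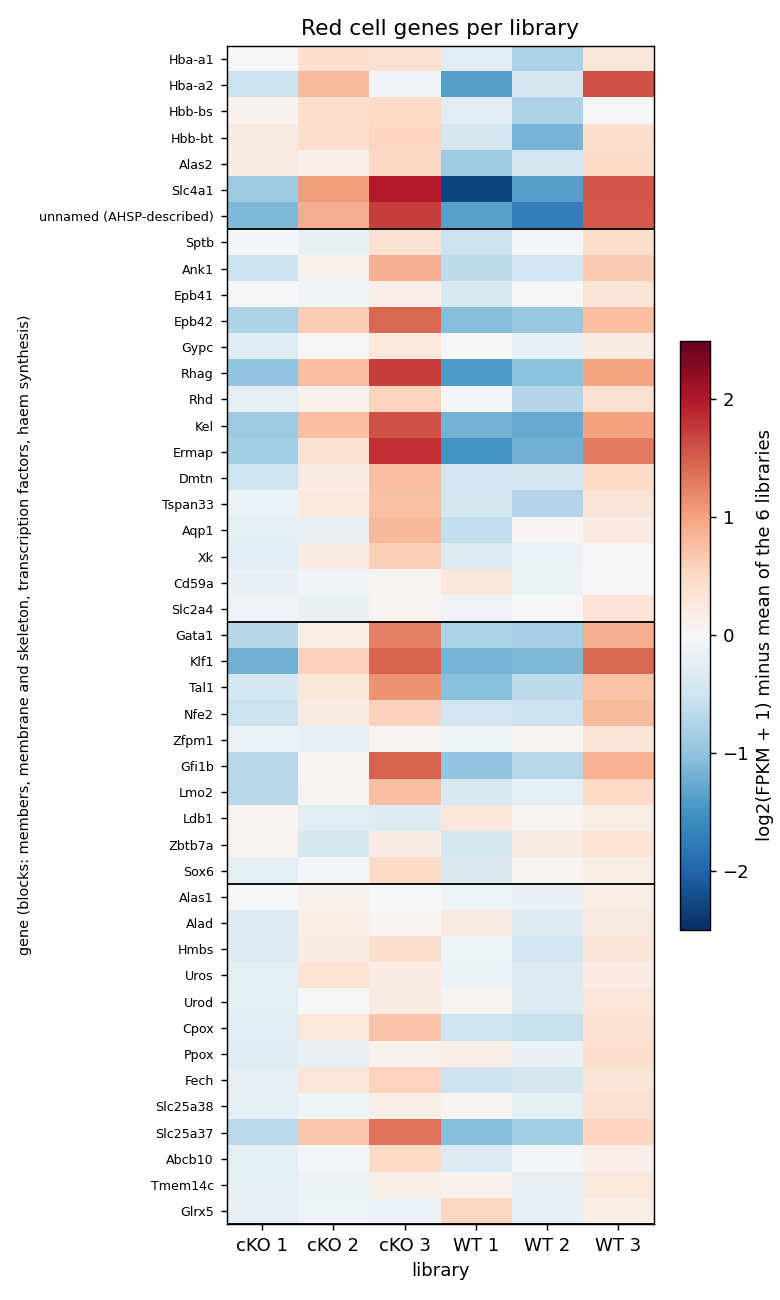
Log2(FPKM + 1), centred on each gene's mean of all libraries, for the 6 members, the row described as alpha-hemoglobin-stabilizing protein and tested genes of the membrane, transcription factor and haem synthesis lists; red is above and blue below that mean, with cKO libraries on the left. Slc4a1, Rhag, Kel, Ermap, Klf1 and Slc25a37 are red in cKO 2, cKO 3 and WT 3 and blue in the other 3; Rhag, Kel, Ermap and Klf1 were named after their values were seen.

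Among membrane genes, Rhag, the Rh-associated glycoprotein, named after its values were seen, measured 0.526, 4.12 and 9.01 FPKM in cKO 1, 2 and 3, against 0.134, 0.484 and 4.98 FPKM in WT 1, 2 and 3. The pattern was that of Slc4a1, and the log2 difference was 0.99 with a standard error of 0.78 (limma adjusted p = 0.604), with 0.37 without cKO 3, 0.52 without WT 1, 1.73 without cKO 1 and 1.72 without WT 3. Tspan33, a tetraspanin, differed by 0.56, which was 0.33 without cKO 3 and 0.86 without WT 3. Xk, a membrane protein that pairs with Kell, differed by 0.33, which was 0.11 without cKO 3 and 0.56 without cKO 1. The list as a whole had 0 of 17 genes called by limma in either direction, also 0 at an unadjusted p under 0.05, and a median log2 difference of 0.32, which was 0.08 without cKO 3, 0.61 without cKO 1 and 0.59 without WT 3. Ermap, an erythroblast membrane protein also named after its values were seen, measured 0.818, 3.24 and 10.6 FPKM in cKO 1, 2 and 3, against 0.178, 0.416 and 7.03 FPKM in WT 1, 2 and 3. The groups overlapped, and the log2 difference was 0.91 with a standard error of 0.84 (limma adjusted p = 0.657), with 0.23 without cKO 3 and 1.79 without WT 3.

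Of 13 haem synthesis genes, limma called 0, also 0 at an unadjusted p under 0.05, and the median log2 difference was 0.08, which turned to -0.060 without cKO 3 and -0.013 without WT 2. Slc25a37, mitoferrin, which carries iron into mitochondria, measured 7.77, 20.9 and 34.3 FPKM in cKO 1, 2 and 3, against 5.56, 6.65 and 19.1 FPKM in WT 1, 2 and 3. It followed the Slc4a1 order, with a log2 difference of 0.92 (limma adjusted p = 0.519), which was 0.47 without cKO 3 and 1.47 without cKO 1. Fech, which inserts iron into protoporphyrin to make haem, differed by 0.43, with 0.26 without cKO 3 and 0.70 without WT 3. Glrx5, an iron-sulphur cluster protein, had a value of -0.30, with -0.12 without WT 1 and -0.48 without WT 2, and Ppox, a late enzyme of the pathway, of -0.27, with -0.13 without WT 3 and -0.43 without WT 2.

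The red cell enzyme and maturation list had 0 of 17 genes called by limma, 1 higher and 1 lower at an unadjusted p under 0.05, and a median log2 difference of 0.16, which lay between 0.07 without WT 2 and 0.30 without WT 3. Car2, carbonic anhydrase, named after its values were seen, measured 4.72, 31.8 and 64.7 FPKM in cKO 1, 2 and 3, against 2.83, 3.12 and 38.4 FPKM in WT 1, 2 and 3, again high in the same 3 libraries. Slc38a5, an amino acid transporter, measured 5.78, 6.46 and 8.34 FPKM in cKO against 11.9, 10.4 and 10.4 FPKM in WT. It was lower in every cKO library than in any WT library (log2 difference -0.61, limma adjusted p = 0.361). Bnip3l, which clears mitochondria from maturing red cells, differed by 0.28, and Tent5c, a poly(A) polymerase, by 0.22, which was 0.10 without WT 1 and 0.36 without WT 3.

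Of 10 erythroid transcription factors, limma called 0, with 0 higher and 1 lower at an unadjusted p under 0.05, and the median log2 difference was 0.15, which turned to -0.078 without cKO 3 and -0.028 without WT 1. Klf1, the erythroid factor that activates adult beta globin, named after its values were seen, measured 1.41, 7.32 and 14.4 FPKM in cKO 1, 2 and 3, against 1.48, 1.59 and 14.1 FPKM in WT 1, 2 and 3. WT 3 was close to cKO 3, and the other WT libraries were near cKO 1. Its log2 difference of 0.56 turned to -0.035 without cKO 3 and was 1.42 without WT 3. Tal1 and Gfi1b, erythroid regulators, differed by 0.64 and 0.53, and without cKO 3 by 0.24 and -0.071. Ldb1 and Zfpm1, cofactors also made in other tissues, differed by -0.34 and -0.19, the second by -0.080 without WT 3. Among 6 tested progenitor genes 0 were called, also 0 at an unadjusted p under 0.05, and Tfrc, the transferrin receptor, differed by 0.44 and Gata2 by -0.33, with 0.18 for Tfrc without cKO 3 and -0.18 for Gata2 without cKO 2.

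The embryonic globins were present at low levels beside the adult ones. Hbb-y, an embryonic beta-like globin, stood at 0.844%, 0.867% and 0.424% of Hbb-bs FPKM in cKO 1, 2 and 3, against 1.01%, 0.911% and 0.794% in WT 1, 2 and 3. Hba-x, the embryonic alpha-like globin, stood at 0.219%, 0.267% and 0.109% of Hba-a1 in cKO, against 0.242%, 0.186% and 0.187% in WT. By these percentages, cKO 3 was the lowest of the 6 libraries for both genes. In FPKM, WT 2 was the lowest for both, with cKO 3 next. Each percentage also falls as the adult globin of the same library rises, and cKO 3 was among the highest for Hbb-bs and Hba-a1. In log2 difference Hbb-y was at 0.27, Hba-x at 0.31, Hbq1b, a theta globin gene, at 0.29, and Cygb, cytoglobin, a globin of other cell types, at -0.28; limma called 0 of these 4, also 0 at an unadjusted p under 0.05. Without cKO 2, Hbb-y was at 0.047 and Hba-x at 0.035, without WT 2 they were at 0.075 and 0.068, and Hbq1b turned to -0.076 without cKO 3.

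Few markers of other blood and vessel cells had the Slc4a1 order, as did few of all genes tested, at 7.06%. Of 11 tested neutrophil and granulocyte genes, 7 were highest in cKO 2 and 1 had the Slc4a1 order. S100a8, a calcium-binding protein of neutrophils, measured 58.3, 113 and 50.3 FPKM in cKO 1, 2 and 3, against 35.7, 42.3 and 45.6 FPKM in WT 1, 2 and 3. Its log2 difference was 0.74 (limma unadjusted p = 0.0294, adjusted p = 0.381), and 0.39 without cKO 2, and Mpo, myeloperoxidase, was at -0.57. The mean centred level of the list was 0.080, 0.546 and -0.176 in cKO 1, 2 and 3, against -0.204, -0.123 and -0.124 in WT 1, 2 and 3, while that of the red cell membrane list was -0.422, 0.246 and 0.874 in cKO, against -0.638, -0.566 and 0.506 in WT. The neutrophil list was thus highest in cKO 2, and the red cell membrane list in cKO 3 and WT 3.

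**Figure D4:**
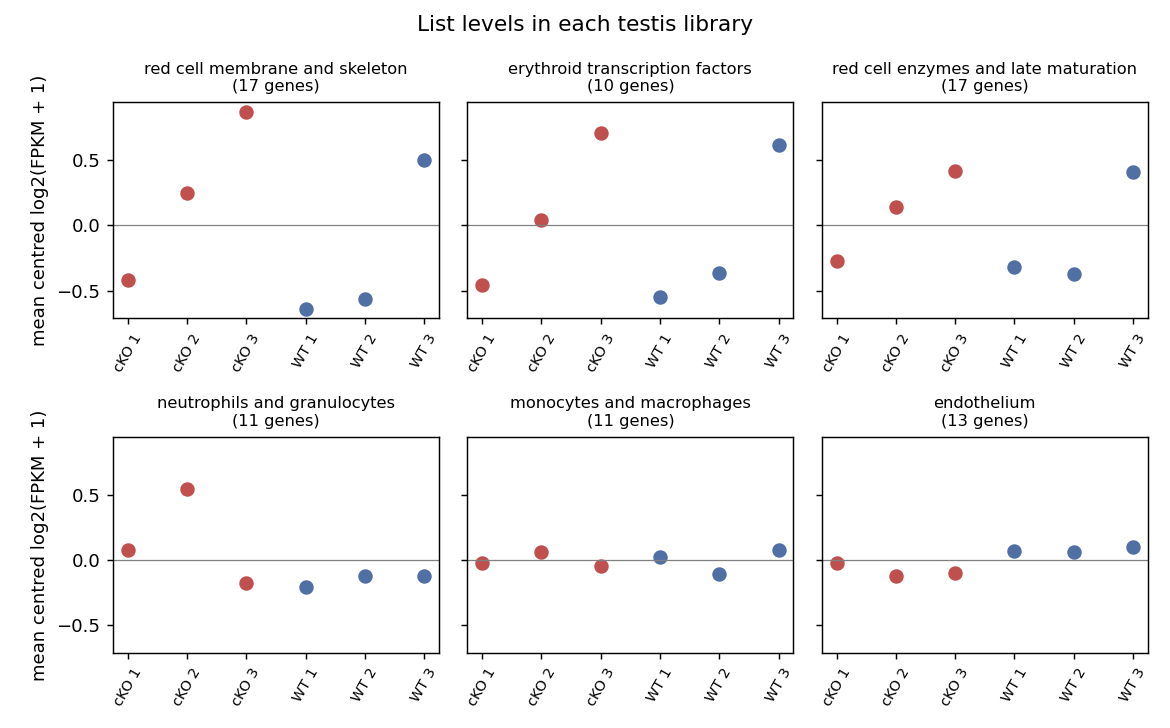
Mean over the tested genes of a list of log2(FPKM + 1), each gene centred on its mean of all libraries, for 3 red cell lists (top) and 3 lists of other cells (bottom), cKO in red on the left and WT in blue on the right. The red cell lists are highest in cKO 3 and WT 3, the neutrophil list in cKO 2, and the endothelial list is below 0 in the 3 cKO libraries and above 0 in the 3 WT libraries.

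Of 11 tested monocyte and macrophage genes, 0 had the Slc4a1 order, 8 had a log2 difference above 0 and the median was 0.07. C1qa, a complement component of macrophages and the gene of the list with the lowest p, went against most of its list and measured 5.41, 4.09 and 4.06 FPKM in cKO, against 7.01, 7.22 and 8.37 FPKM in WT (log2 difference -0.63, limma adjusted p = 0.360). Its relatives were also below 0, C1qb at -0.44 and C1qc, named after its values were seen, at -0.15. In this list limma called 0, with 2 lower and 0 higher at an unadjusted p under 0.05. Of 13 endothelial genes, 1 had the Slc4a1 order, limma called 0, and 4 were lower at an unadjusted p under 0.05, against 7.68% of all genes tested in that direction. Egfl7, an endothelial secreted factor, measured 9.59, 8.54 and 7.43 FPKM in cKO, against 18.2, 11.7 and 11.5 FPKM in WT, a log2 difference of -0.61 (limma adjusted p = 0.372). A log2 difference above 0 was found in 4 of the 13 endothelial genes, 9 of the 11 neutrophil genes and 8 of the 11 monocyte and macrophage genes, beside 6 of 6 members and 50.8% of all genes tested. The neutrophil list had a median of 0.40, which was 0.20 without cKO 2; limma called 0 of its genes, with 2 higher and 1 lower at an unadjusted p under 0.05. The part of these other cells in the globin values was not tested.

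Lymphocyte and platelet markers were near the limit of the table. Of 12 listed lymphocyte genes 3 had a mean of at least 1 FPKM, and Cd3e, a T cell marker, was between 0 and 0.117 FPKM. Of 12 platelet genes 2 passed that limit, and Gp1bb was listed at 0 in every library. The Slc4a1 order was shown by 1 of the 3 lymphocyte genes and 0 of the 2 platelet genes. Ighm, an immunoglobulin heavy chain, differed by 0.46 (limma adjusted p = 0.372), and Itgb3, an integrin of platelets and other cells, by -0.10, which was 0.0080 without cKO 3 and 0.0019 without WT 2. Of 9 genes of haem clearance and iron handling, 0 had the Slc4a1 order, 2 had a log2 difference above 0 and limma called 0; Slc40a1, ferroportin, the cellular iron exporter, was at 0.53 (unadjusted p = 0.0054, adjusted p = 0.372).

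The genes whose pattern across the 6 libraries was most like the mean log2 level of the members were Naf1, Tob1, Scpep1, Rasgrp3, Zfp874b, Sinhcaf, Mavs and Cyp17a1, with r between 0.978 and 0.991. They spanned only 0.22 to 0.55 on the log2 scale, against 1.63 for the mean of the members. Among 12560 candidate genes 1.20% had r above 0.9. Cyp17a1, a steroid-making enzyme of Leydig cells, measured 695, 762 and 827 FPKM in cKO 1, 2 and 3, against 620, 588 and 814 FPKM in WT 1, 2 and 3, and was highest in the same 3 libraries as Slc4a1. Of the other Leydig markers, named here for comparison, Hsd3b1 was also highest in these libraries, but Star and Insl3 were not. Star was lower in cKO 2, at 123 FPKM, than in cKO 1, at 146 FPKM. Insl3 was higher in WT 1, at 130 FPKM, than in cKO 2 and cKO 3, at 106 and 113 FPKM.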

How the data were processed

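Per the labels' protocols, whole-testis RNA was taken up in Trizol and sequenced from SMARTER mRNA-Seq libraries. The authors deposited 1 table of FPKM values for 3 cKO and 3 WT samples. The submitters' processing notes name GRCm38 and mm10; aligner, counter and strand use were not given in the sources used here. Table positions were not used; positions are from GENCODE M21. Within each library, over 99.99% of the products of FPKM and length were multiples, within 0.01, of the smallest product, which gave the recovered reads. Exact Poisson intervals have a confidence level of 95%.

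Genotypes were compared by limma-trend (limma 3.58.1 in R 4.3.3) on log2(FPKM + 1), a pseudocount of 1, for genes with a mean of at least 1 FPKM, cKO minus WT, with Benjamini-Hochberg adjustment over all genes tested and a threshold of 0.05. This scale understates changes of low genes. The comparison was also run on simulated reads drawn with the same spread setting for all genes. That run cannot show how it performs for genes as variable as Slc4a1. Single ratios used exact two-sided permutation tests (scipy 1.17.1). The members and the 12 other lists were chosen with earlier results of these data known. Named genes are the members and up to 4 per list with the lowest unadjusted p; those named otherwise are said to be, and some that the rule names are not reported here. Candidates for likeness left out clone-type symbols. Alternatives were other pseudocounts, filters, scalings and limma settings, limma voom, a replicate block and leaving out each library.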

Additional observations from a re-analysis of the deposited data

How the results depend on the processing

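Under 18 alternative settings, which included leaving out each library, 0 of 6 members were called. Hba-a1, Hbb-bs, Hbb-bt, Alas2 and Slc4a1 kept a log2 difference above 0 in all 18. Slc4a1 ranged from 0.21 with library weights to 2.55 without WT 3. Over all genes, 2 were called; there were 1 with a pseudocount of 0.1 or 0.5, 1 above a mean of 5 FPKM, 1 with limma voom, 0 without a filter, 680 with library weights and 0 to 0 when each library was left out. The cause was not tested.

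Library weights turned Hba-a2 to -0.95, Klf1 to -0.27, Gfi1b to -0.0060, the haem synthesis median to -0.057 and the transcription factor median to -0.18, which was -0.088 above a mean of 5 FPKM. Over single left-out libraries, Hba-a2 ranged from -0.52 to 0.96, Hbq1b from -0.076 to 0.72, Klf1 from -0.035 to 1.42, Gfi1b from -0.071 to 1.10, Itgb3 from -0.23 to 0.0080, the haem synthesis median from -0.060 to 0.18 and the transcription factor median from -0.078 to 0.47. On the log2 scale, Hba-a1 over Hba-a2 ranged from -0.17 to 1.04, Hbb-bs over Hbb-bt from -0.34 to 0.063, and Alas2 with Slc4a1 per globin from -0.16 to 0.56. The list medians were taken through these settings after the data were seen, as were Klf1 and the row described as alpha-hemoglobin-stabilizing protein. Slc38a5 and C1qa were each called in 1 of 18 settings.

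With the replicate number as a block, 0 genes and 0 members were called, with 3 members higher in cKO at an unadjusted p under 0.05, against 4.54% of all genes tested. Same-numbered libraries deviated from their group means with r of 0.095, -0.33 and 0.39, and all combinations of a cKO and a WT library spanned -0.45 to 0.39. Whether the numbers pair the libraries cannot be told from so few values. With the block, Slc4a1 had an unadjusted p of 0.0074 and an adjusted p of 0.353 by limma, against 0.203 and 0.572 without it. Counting error was small beside the spread between libraries for every member.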

Other observations

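The 20 tested genes with the largest within-group standard deviation, ranked after the values were seen, held 6 genes of the red cell lists (Car2, Slc4a1, Ermap, Klf1 and Pklr among them), although those lists made up 0.513% of the genes tested. Of the 20, 14 had cKO 2, cKO 3 and WT 3 as their highest 3 libraries, against 7.06% of all genes tested. Ranking by spread within groups favours genes that split both groups, as this pattern does, so the count describes these genes and tests nothing. Among these 14 were genes outside every list: Hemgn, hemogen, an erythroid nuclear protein, Cldn13, a claudin, Mir144, a microRNA of red cell precursors, and the mitochondrial tRNA genes mt-Tr and mt-Tg. Mir144, mt-Tr and mt-Tg were listed at 0 FPKM in cKO 1, WT 1 and WT 2. Their spread thus rests on values at the floor, and Mir144 was at only 0.928 FPKM in cKO 3. Pklr, pyruvate kinase of liver and red cells, measured 0.054, 1.49 and 4.88 FPKM in cKO 1, 2 and 3, against 0.039, 0.405 and 6.37 FPKM in WT 1, 2 and 3. These Pklr values rested on 3, 85 and 258 reads in cKO and 2, 22 and 336 reads in WT, so the lowest are uncertain. The median within-group standard deviation was 0.38 over the 73 tested red cell genes and 0.18 over all genes tested, both on the log2 scale.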
